A study of Mus musculus with 2 samples.

Results

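The 10 receptors followed here tune T cell activation, and their transcripts were compared between control and *Fak*-deleted Th17 cells. They were the CD28 family members *Cd28*, *Icos*, *Ctla4*, *Pdcd1* and *Btla*, the inhibitory receptors *Lag3* and *Havcr2*, and the receptors for nectins and CD155, *Tigit*, *Cd226* and *Cd96*. All 10 symbols had a row among the 23282 gene rows of each count table. Splenic naïve CD4 T cells of young adult female *Fak* fl/fl mice had been given an empty retrovirus (Control) or a retrovirus carrying Cre recombinase (RV-Cre), which removes the floxed part of *Fak*. Both cultures received plate-bound anti-CD3ε at 10 μg/ml, soluble anti-CD28 at 5 μg/ml, IL-6 at 50 ng/ml, TGFβ1 at 1 ng/ml, TNF at 1 ng/ml, IL-1β at 2 ng/ml and antibodies to IFNγ and IL-4 at 5 μg/ml each, and GFP+ cells were sorted after 3 days. The labels give the Control library the genotype WT, whereas its title names the floxed strain, which was followed here. There was 1 library per condition, so the spread between cultures is unknown, replicates cannot check any difference, and no test was run. RV-Cre and loss of *Fak* came together in 1 library and cannot be told apart, and anti-CD28 engaged one of the receptors described in both cultures.

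A T cell needs a second signal beside its antigen receptor, and CD28 gives it when it binds CD80 or CD86 on another cell. ICOS, a relative induced by activation, binds ICOSL and recruits PI3 kinase, while CTLA-4 takes CD80 and CD86 away from CD28 and restrains the cell. PD-1 and BTLA carry tyrosine motifs that recruit phosphatases, LAG-3 binds MHC class II, and TIM-3 (encoded by *Havcr2*) marks chronically stimulated cells. CD226 activates T cells and NK cells on binding CD155, and TIGIT and CD96 compete with it for that ligand.

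The tables summed to 13799264 counted reads in the Control library against 12305010 in the RV-Cre library. *Rn45s*, the ribosomal RNA precursor, took 8.5% of these reads in the Control library against 14.6% in the RV-Cre library, and was kept in the totals. The libraries were of the QuantSeq type, with reads from the 3′ ends of transcripts, so that levels are given as CPM (reads scaled to a common library total) without division by length. Ratios are of counts scaled (normalized) by the TMM method, and log2 ratios were formed after 1 was added to each normalized count. A gene was read as higher or lower (2-fold) at a log2 ratio of at least 1 in size. It passed the expression minimum with log2(normalized count + 1) of at least 4 in at least 1 library. Intervals are exact 95% intervals that cover counting error only. *Ptk2*, the gene of FAK, had 110 reads in the Control library against 31 in the RV-Cre library. The ratio was 0.318 (0.206 to 0.477). Where the floxed exon lies relative to these 3′ reads is not given in the sources used here, so the value shows less *Ptk2* transcript and does not check the deletion itself. Paired values below are given for the Control library first and the RV-Cre library second. All 10 T cell defining genes were well covered, with summed levels of 2204 and 2949 CPM, and summed Th17 markers were at 358 and 209 CPM in the same order. Of the 8 Th17 markers past the minimum, 5 were lower by at least 2-fold, among them *Il17a* (424 and 103 reads) and *Il17f* (421 and 79 reads). Of all genes past the minimum, 12.3% were that much lower and 14.2% that much higher. Markers of other cells were present at low levels and moved with the libraries. Both CD8 markers were higher in the RV-Cre library, summing to 32.2 and 69.4 CPM, and myeloid markers went from 5.65 to 46.1 CPM with 4 of the 6 genes past the minimum higher and 1 lower. B cell markers went from 3.04 to 8.78 CPM with *Pax5* at 0 in both libraries. NK cell markers were lower, at 37.8 and 16.2 CPM with *Klra8* at 0 in both, and dendritic cell markers were at 6.23 and 6.01 CPM with *Clec9a* and *Cd209a* at 0 in both. The part of these cells in the results below was not tested.

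Of the 10 receptors, 8 passed the expression minimum, and their transcripts went in different directions. *Ctla4* was lower in the RV-Cre library, at 0.243 of its Control level, and *Icos* and *Lag3* were at least 2-fold higher. The count of 2 higher genes among 8 stood beside 14.2% of all 12112 genes past the minimum, and the 1 lower gene beside 12.3%. The median log2 ratio of the 8 receptors was 0.24, against -0.01 for all genes past the minimum. The counting interval lay above a ratio of 1 for 5 receptors (*Cd28*, *Icos*, *Btla*, *Lag3* and *Cd96*) and below 1 for 2 (*Ctla4* and *Pdcd1*), where 36.7% and 38.1% of all genes did so. In bulk RNA, fewer cells carrying a transcript and less of it per cell cannot be told apart.

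**Figure D1:**
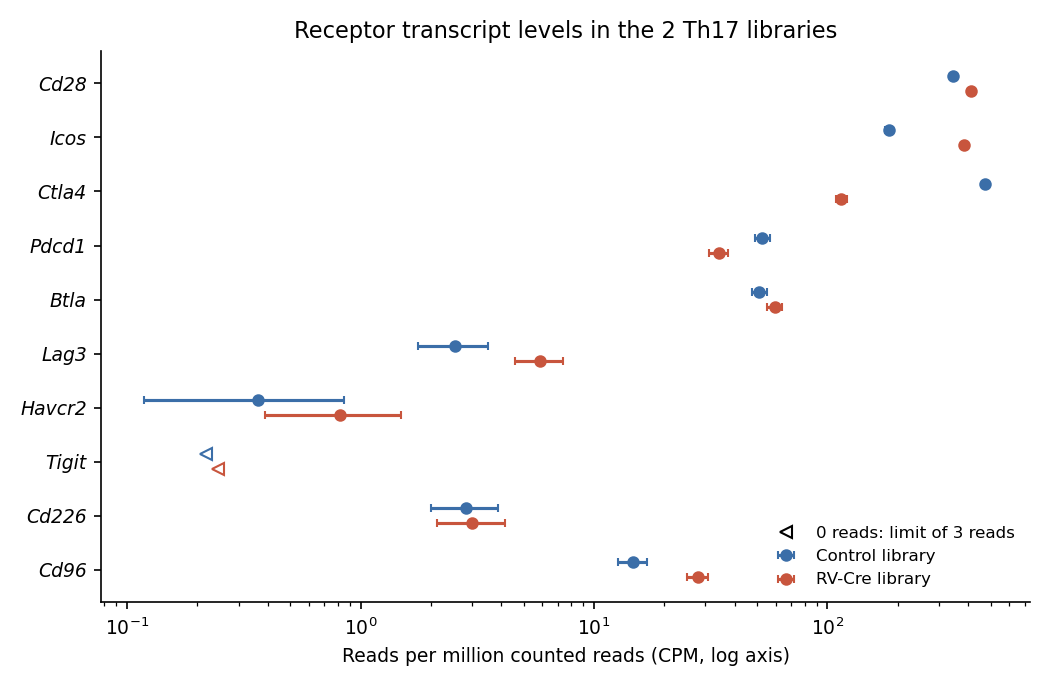
Transcript levels of the 10 receptors in CPM (log axis), Control library in blue and RV-Cre library in red, with exact 95% Poisson intervals of the counts. *Ctla4* stood at 473 CPM in the Control library and at 115 CPM after RV-Cre, and *Tigit* had no reads, shown as open triangles at the limit of 3 reads.

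Levels of different receptors were compared per kb of the principal transcript. In the Control library the order was *Ctla4* at 245 CPM per kb, *Cd28* at 79.5, *Icos* at 56.5, *Btla* at 31.9, *Pdcd1* at 27.3, *Cd96* at 6.70, *Lag3* at 1.27, *Cd226* at 0.629 and *Havcr2* at 0.133. In the RV-Cre library *Icos* led at 118 CPM per kb, followed by *Cd28* at 94.4, *Ctla4* at 59.2, *Btla* at 37.2, *Pdcd1* at 17.7, *Cd96* at 12.7, *Lag3* at 2.92, *Cd226* at 0.669 and *Havcr2* at 0.299. *Ctla4* thus went from the highest place to the third, and the order of the 6 receptors below *Icos*, *Cd28* and *Ctla4* was the same in both libraries. The counting intervals of neighbours in these orders did not overlap, except those of *Cd226* and *Havcr2* in the RV-Cre library. A 3′ library gives reads per transcript rather than per base, so the division by length is a convention here. The principal transcript of *Btla* has 1598 bases, fewer than the 2298 bases of its longest annotated 3′ untranslated region. Its place in these orders thus depends on the transcript chosen. Without it *Cd28* (410 CPM) stood above *Icos* (384 CPM) in the RV-Cre library with no overlap of their intervals, and *Ctla4* (115 CPM) still lay below both. Also without it, *Pdcd1* (52.6 CPM) and *Btla* (51.0 CPM) had overlapping intervals in the Control library, as did *Cd226* (2.83 CPM) and *Lag3* (2.54 CPM).

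*Ctla4*, an inhibitory receptor of the family (chromosome 1, 60909025 to 60915832, plus strand, GRCm38), had 6530 reads in the Control library against 1409 in the RV-Cre library. The ratio was 0.243 (0.230 to 0.258), a log2 ratio of -2.04. Among the 2473 genes whose log2 values averaged 10 or more, the level at which *Ctla4*, *Cd28* and *Icos* lie, 6.07% were at least 2-fold lower, 3.28% were that much higher, and the interval lay above 1 for 36.5% and below 1 for 51%. Among the 8669 genes with a mean of 4 to 10, which hold *Pdcd1*, *Btla*, *Lag3*, *Cd226* and *Cd96*, the shares were 13% lower and 11.6% higher, with intervals above 1 for 33.7% and below 1 for 36.2%. *Pdcd1*, which encodes PD-1 (chromosome 1, 94038305 to 94052553, minus strand), was lower as well but by less than 2-fold, with 726 and 420 reads and a ratio of 0.653 (0.578 to 0.737). *Ctla4* showed the larger difference of these inhibitory receptors, since the number of *Ctla4* reads per *Pdcd1* read went from 8.99 to 3.35, a change of 0.373-fold (0.326 to 0.427) that no scaling affects. *Btla*, the receptor of HVEM (chromosome 16, 45223705 to 45252895, plus strand), had 704 and 731 reads, a ratio of 1.17 (1.06 to 1.30) that lies near 1 although its interval does not reach it.

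The bases before the annotated starts are shown for *Ctla4* and *Pdcd1*, the receptors whose counting intervals lay below a ratio of 1. Those of *Cd96*, whose interval lay above 1, stand beside them. The interval of *Btla*, whose bases are not printed, also lay above 1. Only *Ctla4* among these passed the 2-fold line. Each line gives 250 bases in the direction of the gene, from RefSeq on GRCm38.p6. Capitals mark letters that match, on either strand, an NFAT core (GGAAA), an AP-1 motif (TGANTCA), an NF-κB motif, a GATA motif (AGATAA), a RORE (AGGTCA), a STAT motif (TTCNNNGAA) or a FOXO motif (GTAAACA). *Ctla4* lies at chr1:60908775-60909024, *Pdcd1* at chr1:94052554-94052803 and *Cd96* at chr16:46120249-46120498.
Ctla4: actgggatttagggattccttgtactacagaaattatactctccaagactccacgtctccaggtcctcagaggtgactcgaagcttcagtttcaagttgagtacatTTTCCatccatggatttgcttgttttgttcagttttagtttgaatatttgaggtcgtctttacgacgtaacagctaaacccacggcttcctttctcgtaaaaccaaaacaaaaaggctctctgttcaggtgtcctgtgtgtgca
Pdcd1: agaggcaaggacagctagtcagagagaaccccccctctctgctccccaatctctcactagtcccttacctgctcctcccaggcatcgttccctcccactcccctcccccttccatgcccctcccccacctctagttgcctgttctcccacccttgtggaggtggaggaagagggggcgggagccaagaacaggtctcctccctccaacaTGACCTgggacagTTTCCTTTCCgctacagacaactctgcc
Cd96: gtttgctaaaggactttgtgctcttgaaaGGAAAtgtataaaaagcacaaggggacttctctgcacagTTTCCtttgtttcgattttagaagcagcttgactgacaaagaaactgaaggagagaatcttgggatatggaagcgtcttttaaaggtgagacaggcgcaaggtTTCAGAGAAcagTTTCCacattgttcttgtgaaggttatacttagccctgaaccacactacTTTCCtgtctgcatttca
The *Ctla4* window held 1 NFAT core, 144 bases before the start, and no other match. The *Pdcd1* window held 2 NFAT cores, beginning at -28 and -23, and 1 RORE at -41. The *Cd96* window held 4 NFAT cores and 1 STAT motif at -79, which shares a base with none of them. Over the same windows of 27025 genes, 55.6% held an NFAT core, 13.8% a RORE, 7.18% a STAT motif, 10.3% a GATA motif, 6.87% an AP-1 motif, 3.09% a FOXO motif and 1.40% an NF-κB motif, so an NFAT core was the most common of the motifs searched. Of the other receptors, *Btla*, *Havcr2* and *Tigit* also had a window. That of *Havcr2* held 1 AP-1 motif and 1 RORE, that of *Tigit* 2 NFAT cores and 1 GATA motif, and that of *Btla* none of the motifs. The windows of *Btla* (chr16:45224087-45224336) and *Tigit* (chr16:43664185-43664434) lie within the spans given for these genes. They therefore do not show the bases before those spans.

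*Icos*, the costimulatory receptor induced by activation (chromosome 1, 60960773 to 61000322, plus strand), had 2526 reads in the Control library against 4719 in the RV-Cre library. The ratio was 2.11 (2.01 to 2.21), just past the 2-fold line. *Cd28* itself (chromosome 1, 60746388 to 60773359, plus strand) had 4767 and 5051 reads, a ratio of 1.20 (1.15 to 1.24). The summed reads of the T cell defining genes were 1.35-fold higher in the RV-Cre library. Scaled to that sum, *Icos* had a log2 ratio of 0.65 and was no longer called, and *Cd28* stood at -0.17 and *Btla* at -0.20, below 0. The 10 genes of the sum did not move together, with ratios from 0.504 (*Cd5*) to 2.30 (*Cd3d*), and *Cd4* was at 1.02. Their counting intervals lay above 1 for 7 genes and below 1 for 1. *Ctla4* was at least 2-fold lower under all 8 scalings, with log2 ratios from -2.47 to -1.62.

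**Figure D2:**
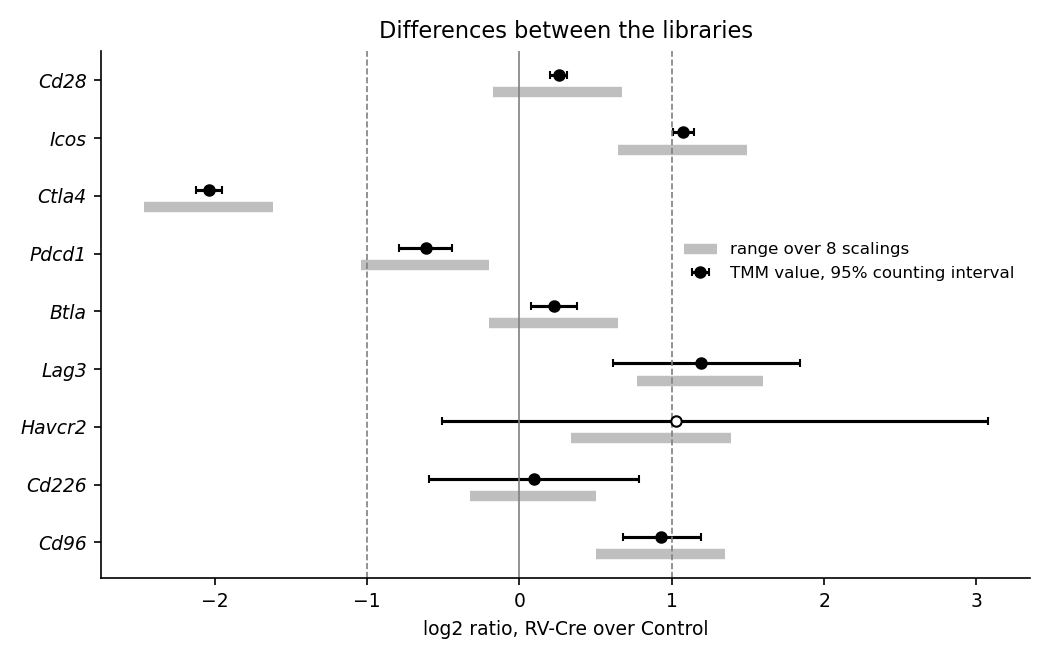
Log2 ratio of each receptor with a read, RV-Cre over Control. Circles give the value after TMM scaling with its exact 95% counting interval (open where the gene missed the expression minimum), grey bars the range over 8 scalings, and dashed lines a 2-fold difference. *Ctla4* lay beyond the lower line under every scaling, whereas the bars of *Icos*, *Lag3*, *Havcr2* and *Cd96* crossed the upper line and that of *Pdcd1* reached the lower line.

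The mix of CD28 family reads differed between the libraries, a measure taken as shares of reads (not per length) that needs no scaling between libraries. The 5 genes together held 15253 reads in the Control library against 12330 in the RV-Cre library, that is 1105 and 1002 CPM. These CPM are over totals that include *Rn45s*, whose share was larger in the RV-Cre library. *Ctla4* took 42.8% of these reads (42.0 to 43.6, Clopper-Pearson) in the Control library against 11.4% (10.9 to 12.0) in the RV-Cre library. *Icos* took 16.6% (16.0 to 17.2) and 38.3% (37.4 to 39.1), and *Cd28* 31.3% (30.5 to 32.0) and 41.0% (40.1 to 41.8). *Btla* and *Pdcd1* stayed minor components, at 4.62% and 4.76% in the Control library against 5.93% and 3.41% in the RV-Cre library. These shares sum to the whole, so a higher share of *Cd28* goes with the fewer *Ctla4* reads and does not show more *Cd28*, whose own ratio was 1.20.

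*Cd28* and *Ctla4* bind the same ligands, so the number of *Cd28* reads per *Ctla4* read was followed. It was 0.730 in the Control library against 3.58 in the RV-Cre library, a 4.91-fold difference (4.58 to 5.27). *Icos* reads per *Ctla4* read went from 0.387 to 3.35, an 8.66-fold difference (8.03 to 9.34). Between the costimulatory genes the difference was smaller, from 0.530 to 0.934 *Icos* reads per *Cd28* read, or 1.76-fold (1.66 to 1.88). These values compare the libraries and hold no variation between cultures.

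**Figure D3:**
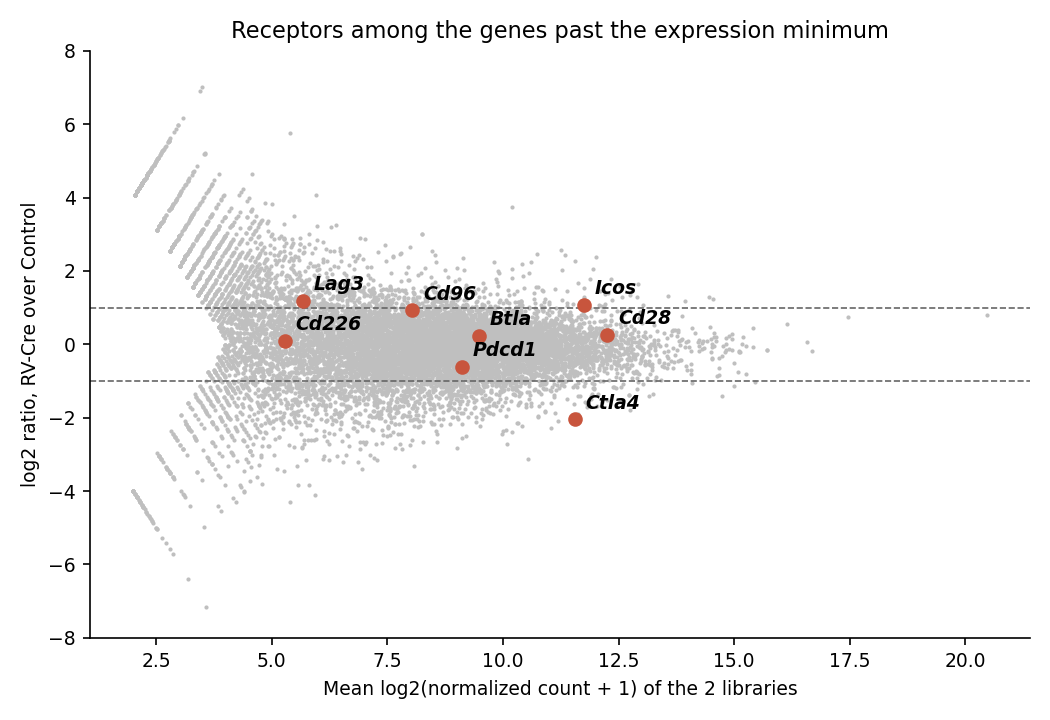
Log2 ratio (RV-Cre over Control) against the mean log2(normalized count + 1) of the libraries for the 12112 genes past the expression minimum (grey), with the 8 receptors past it in red. *Ctla4* at -2.04 lay below most genes of its abundance, while *Lag3* and *Cd226* lay at low levels where ratios spread widely.

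*Cd28*, *Ctla4* and *Icos* lie side by side on chromosome 1 in the same orientation. The gap from *Cd28* to *Ctla4* is 135.67 kb and that from *Ctla4* to *Icos* 44.9 kb, and no other RefSeq gene overlaps them, although GENCODE places the pseudogene *Rpl18-ps1* within *Ctla4* and the unclassified transcript *Gm37039* within *Icos*, both on the same strand. *Ctla4* and *Icos* thus differed in opposite directions within this short stretch, with log2 ratios of 0.26, -2.04 and 1.08 for *Cd28*, *Ctla4* and *Icos* along the chromosome. Further upstream, *Raph1*, which encodes the actin regulator lamellipodin, was at 0.06 and *Abi2*, a component of the WAVE complex, at -0.81, neither of them 2-fold different, while *Nbeal1*, within 500 kb of *Cd28*, was higher with 184 and 385 reads. Around *Pdcd1*, 2 of the 7 genes past the minimum within 500 kb were at least 2-fold lower, *Thap4* (log2 ratio -1.07) and *Dtymk*, a kinase of dTTP synthesis (-1.17), and 0 were higher, beside 12.3% and 14.2% of all genes. The window of *Lag3* held 7 higher and 3 lower of 33 genes, that of *Btla* 4 and 1 of 9, that of *Havcr2* 1 and 3 of 9, and that of *Cd96* 1 and 1 of 4. The windows of *Tigit* (5 genes) and *Cd226* (2 genes) held 0 in either direction.

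**Figure D4:**
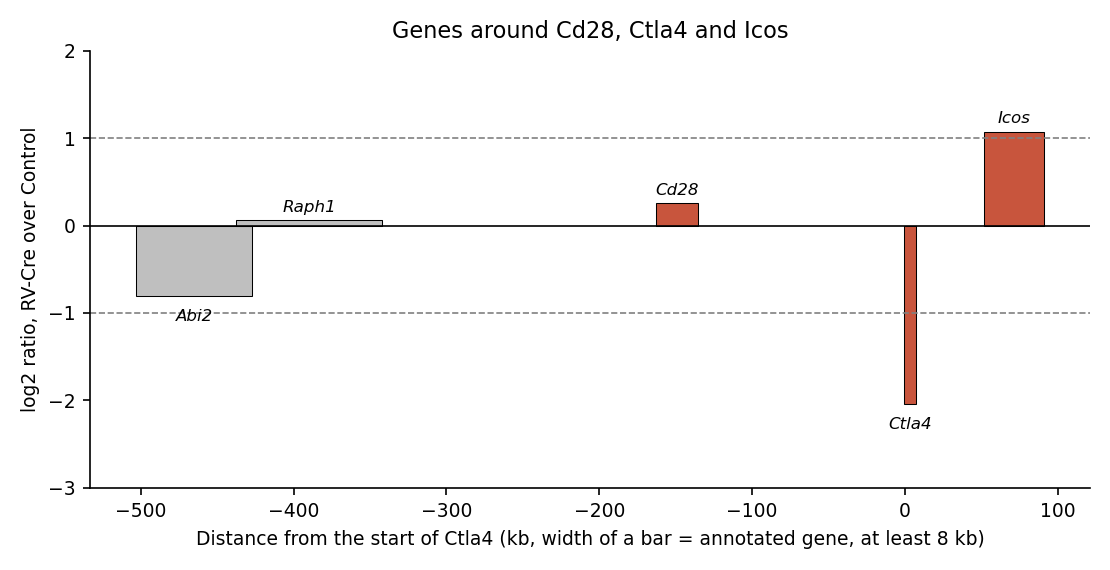
Log2 ratio (RV-Cre over Control) of the genes past the expression minimum within 500 kb of *Ctla4*, at their distance from its start in kb. Bars are as wide as the annotated gene, at least 8 kb, receptors in red and other genes in grey. *Icos* at 1.08 and *Ctla4* at -2.04 are neighbours 44.9 kb apart.

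*Lag3*, the MHC class II receptor related to CD4 (chromosome 6, 124904359 to 124912434, minus strand), had 35 reads in the Control library against 72 in the RV-Cre library. The ratio was 2.32, with an interval from 1.53 to 3.58 that includes values on both sides of 2. Its neighbour and relative *Cd4*, which lies 16.1 kb away, had 1489 and 1342 reads and a log2 ratio of 0.02. Per *Cd4* read there were 0.0235 *Lag3* reads in the Control library against 0.0537 in the RV-Cre library, a 2.28-fold difference (1.49 to 3.55). CD8 T cells and NK cells also express *Lag3*, and the CD8 markers *Cd8a* (322 and 580 reads) and *Cd8b1* (122 and 274 reads) were higher in the RV-Cre library while NK markers were lower. With scaling to T cell defining genes *Lag3* was at 0.77 and missed the 2-fold line.

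*Havcr2*, the TIM-3 gene (chromosome 11, 46454931 to 46481255, plus strand), had 5 and 10 reads and missed the expression minimum. The ratio of 2.26 had an interval from 0.703 to 8.42, so a difference was not detectable at this depth. *Tigit* (chromosome 16, 43626137 to 43665125, minus strand) had 0 reads in both libraries, which allows a level of up to 0.217 CPM in the Control library against 0.244 CPM in the RV-Cre library. In RefSeq *Tigit* overlaps *Zbtb20* in part, and whether the counting used strand is not given in the sources used here.

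The activating receptor *Cd226*, on chromosome 18, had 39 and 37 reads, with a ratio of 1.07 (0.664 to 1.72), which leaves room for a difference of over 1.5-fold either way. *Cd96*, its competitor for CD155 (chromosome 16, 46035652 to 46120248, minus strand), had 202 and 342 reads, a ratio of 1.91 (1.60 to 2.28), just short of the 2-fold line. *Cd226* reads per *Cd96* read went from 0.193 to 0.108, a change of 0.560-fold (0.336 to 0.935), but the 99% interval, from 0.288 to 1.09, includes 1. A ratio of *Cd226* to *Tigit* could not be formed. *Pvr*, the gene of CD155 itself, was the best covered ligand of this group with 423 and 485 reads, a ratio of 1.29 (1.13 to 1.48).

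The 3′ untranslated regions, where QuantSeq reads arise and where Roquin and Regnase proteins act on several of these mRNAs, differed widely in length. In GENCODE M21 the longest one was 3577 bases for *Cd28*, 2609 for *Icos* and 1118 for *Ctla4*, with 6, 2 and 3 copies of the ATTTA element. Those of *Lag3* (84 bases) and *Tigit* (137 bases) were the shortest of the 10 and held none, whereas *Btla* had 5 and *Cd226* 10 copies. For 11048 genes past the minimum the median was 1167 bases with 2 copies, and 23.0% had at least 5 copies, as *Cd28*, *Btla* and *Cd226* did.

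The list of ligand genes of these receptors held 19 genes, among them *Cd74*, the MHC class II invariant chain, which is not itself a ligand. Of the 19 genes, 13 passed the minimum, and the RV-Cre library had 4 at least 2-fold higher and 2 lower. Of all genes past the minimum 14.2% were higher and 12.3% lower. The median log2 ratio of the 13 was 0.38 (-0.05 with scaling to T cell defining genes). Scaling to T cell defining genes gave 2 higher and 3 lower of 14 genes, and scaling to *Gapdh* 6 higher and 1 lower of 13. *Pdcd1lg2*, which encodes the PD-1 ligand PD-L2, was lower with 328 and 82 reads, a ratio of 0.282 (0.219 to 0.360). The other PD-1 ligand gene, *Cd274*, had 221 and 199 reads, a ratio of 1.02 (0.835 to 1.24). Reads of *Pdcd1* per read of *Pdcd1lg2* therefore went from 2.21 to 5.12. *Hmgb1*, a chromatin protein that also binds TIM-3, was lower with 1437 and 585 reads.

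*Icosl*, the ICOS ligand of antigen-presenting cells, was higher with 5 and 48 reads, a ratio of 10.8 whose interval runs from 4.33 to 34.9. The LAG-3 ligand gene *H2-Eb1* (223 and 489 reads) was higher too, as was *Cd74*, the invariant chain gene (244 and 583 reads). *H2-Aa* and *H2-Ab1* had log2 ratios of 0.38 and 0.90. Markers of other antigen-presenting cells were mixed, with the myeloid markers *Csf1r* (16 and 110 reads) and *C1qb* (1 and 65 reads) higher and *Lyz2* (22 and 7 reads) and the dendritic cell marker *Itgax* (27 and 1 reads) lower, and the part of such cells was not tested. *Nectin1*, a ligand of CD96 that the tables list as *Pvrl1*, was higher with 9 and 27 reads. Of the CD28 and CTLA-4 ligands, *Cd86* had 70 and 60 reads, and *Cd80* had 14 and 0 reads and missed the minimum.

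All 34 genes of proximal signalling passed the minimum, with 5 at least 2-fold higher, 0 lower and a median log2 ratio of 0.37. The count of higher genes was near the 14.2% of all genes, so it is no result about the list. *Pik3r1*, the regulatory PI3 kinase subunit that docks on CD28 and ICOS, had 930 and 1820 reads, a log2 ratio of 1.14. *Prkcq*, the protein kinase C θ recruited downstream of CD28, had 486 and 1044 reads, a log2 ratio of 1.28. The brakes *Dgka*, a diacylglycerol kinase, and *Cblb*, a ubiquitin ligase that makes activation depend on CD28, were at 1.40 and 1.33. *Gab2*, an adaptor, rested on 5 and 19 reads. The phosphatase genes that act behind PD-1 and BTLA were below 2-fold, with *Ptpn6* (SHP-1) at 0.04 and *Ptpn11* (SHP-2) at -0.34. Scaling to the T cell defining genes left 1 gene higher and 1 lower, with a median of -0.05, so the direction of this list depended on the scaling.

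Of the 17 genes listed for turnover and trafficking of the receptors, 15 passed the minimum, and 2 were higher and 2 lower. Over all genes past the minimum the shares were 14.2% and 12.3%. The median log2 ratio of the 15 was -0.09 (0.33 with scaling to *Gapdh*). Scaling to T cell defining genes gave 0 higher, 3 lower and a median of -0.51. *Cmtm6* (1649 and 684 reads) and *Cmtm4* (177 and 34 reads), whose products keep PD-L1 at the cell surface, were lower. Their log2 ratios were -1.09 and -2.18. *Cmtm6* was at least 2-fold lower under 6 of the 8 scalings, with log2 ratios from -1.52 to -0.68, and *Cmtm4* under all 8. *Zc3h12d*, of the Regnase family, and *Dennd1b*, a trafficking factor, were higher, with log2 ratios of 1.10 and 1.26 that fell below the 2-fold line with scaling to T cell defining genes (0.67 and 0.83). *Rc3h1* and *Zc3h12a*, which encode Roquin-1 and Regnase-1 and limit *Icos* mRNA, were at 0.01 and -0.10, and *Lrba*, which spares CTLA-4 from lysosomes, was at -0.13.

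Of the transcription factors listed for these receptor genes, 32 passed the minimum, with 2 higher and 2 lower, where 14.2% and 12.3% of all genes were, and a median log2 ratio of -0.06. With scaling to *Gapdh* 6 were higher and 1 lower (median 0.36), and with scaling to T cell defining genes 2 were higher and 4 lower (median -0.49). *Gata3* had 114 and 814 reads and a log2 ratio of 3.00, and *Tcf7*, of resting and memory T cells, had 142 and 424 reads and one of 1.74. *Tbx21* (T-bet) was lower with 1569 and 399 reads, a log2 ratio of -1.80, as was *Maf* at -1.19. *Foxp3*, whose product binds the *Ctla4* gene in regulatory T cells, had 830 and 650 reads, a log2 ratio of -0.18, against -2.04 for *Ctla4*. *Nfatc1* was at 0.39, *Nfatc2* at -0.30 and *Tox* at 0.22.

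Among 20 other immune receptors of T cells, 17 passed the minimum, with 3 at least 2-fold higher and 5 lower. Over all genes past the minimum the shares were 14.2% and 12.3%. The median log2 ratio of the 17 was -0.33 (0.09 with scaling to *Gapdh*). Scaling to *Gapdh* gave 6 higher and 3 lower, and scaling to T cell defining genes 2 higher and 7 lower. *Vsir*, the gene of the B7-related inhibitory receptor VISTA, which the tables list as *4632428N05Rik*, had 1029 and 2714 reads, a ratio of 2.98 (2.77 to 3.20). *Slamf6* (Ly108) had 53 and 258 reads, a log2 ratio of 2.43, and *Cd200r1* only 12 and 24. *Lair1*, a collagen receptor, was lower with 86 and 12 reads, *Crtam* with 189 and 52 and *Havcr1* (TIM-1), a relative of *Havcr2*, with 21 and 0, which makes it at least 6.20-fold lower against the limit of 3 reads. *Cd200* and *Cd160* were also lower, at log2 ratios of -1.23 and -1.15, and *Cd160*, like *Btla*, encodes a receptor of HVEM.

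**Figure D5:**
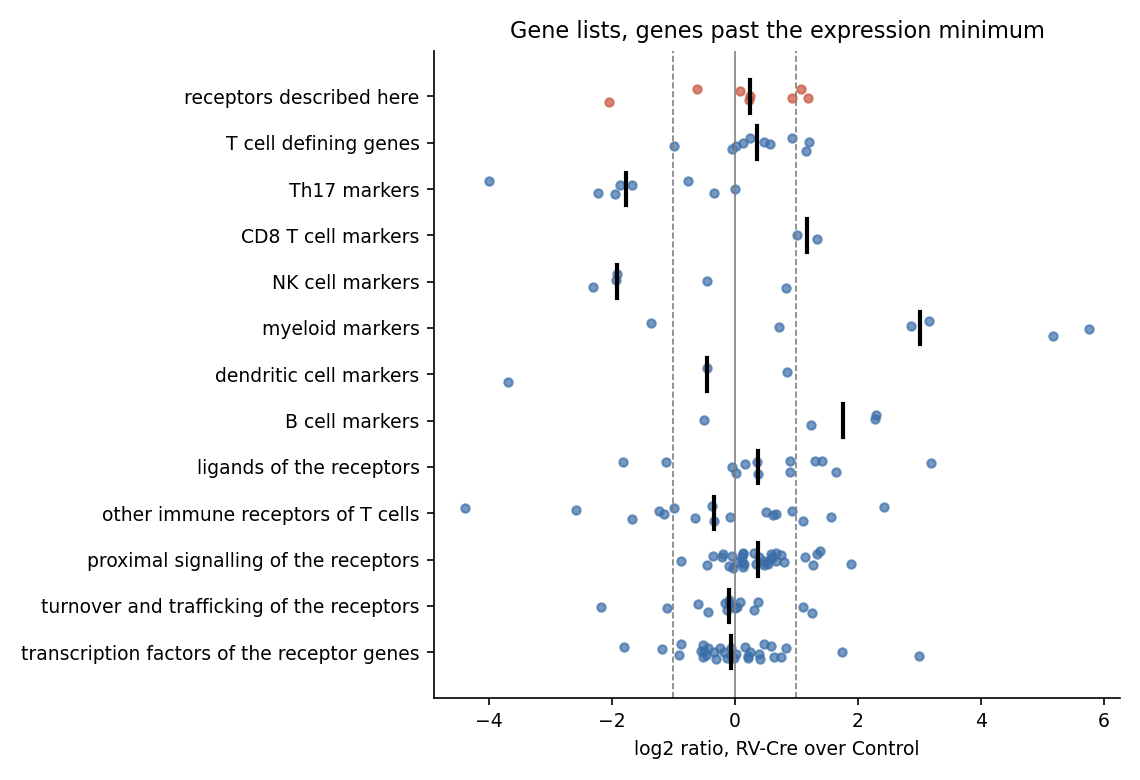
Log2 ratios (RV-Cre over Control) of the genes past the expression minimum in each list, 1 point per gene, with black bars at the medians and dashed lines at a 2-fold difference. Points are spread vertically for visibility. The 8 receptors span -2.04 to 1.19 around a median of 0.24, and the Th17 markers have the median of -1.76.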

How the data were processed

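RNA of sorted GFP+ Th17 cells, 500 ng per condition, had been made into QuantSeq 3′ libraries, 1 for Control and 1 for RV-Cre. The authors deposited raw counts, whole numbers of reads per gene symbol, without normalization. The submitters' processing notes name bcl2fastq 2.20.0.422, Bowtie2, bedtools and the build mm10 (GRCm38). Read filters and strand use are not given in the sources used here. Symbols were matched to RefSeq GRCm38.p6, older names through its synonyms, with GENCODE M21 for exons and strand.

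Counts were scaled by TMM (edgeR 4.0.16, R 4.3.3; size factors 1.06 and 0.941) and compared as log2(normalized count + 1). Intervals of ratios came from the share of a gene's reads in each library (Clopper-Pearson), those of read ratios between genes were exact conditional ones and those of levels exact Poisson ones (scipy 1.17.1). The sources used here name no molecular identifiers, so intervals and the limit of 3 reads cover counting error only. The procedure was run on simulated counts with counting error only and with the size factors known. Such a run cannot check the spread between cultures or the choice of scaling. The members and gene lists were chosen with earlier results of these data known. Named genes are the members, *Ptk2*, up to 3 genes at least 2-fold changed in each direction per list, leading markers and neighbours within 500 kb. *Cd274*, *Cd86*, *Cd80*, *Pvr*, *Ptpn6*, *Foxp3* and other genes below 2-fold, further changed genes of a list, and the read ratios with *Pdcd1*, *Cd4* and *Pdcd1lg2* were added after their values were seen. *Cd2*, *Cd5*, *Lck*, *Lat* and *Eomes* stand in more than 1 list, and *Ighm* and *Pvrig* had no matching row. Alternatives were 7 other scalings (among them size factors of DESeq2 1.42.0), 2 pseudocounts, 2 expression minimums, 2 fold thresholds and a 99% interval.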

Additional observations from a re-analysis of the deposited data

How the results depend on the processing

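No paired analysis was possible because there was a single library for Control and for RV-Cre. With 1 library each, neither cultures nor library preparation could be varied, and a receptor of under 50 reads (*Lag3* in the Control library, *Cd226*, *Havcr2*, *Tigit*) was limited by depth. The main values were 2 receptors at least 2-fold higher, 1 lower and a median log2 ratio of 0.24. Scaling to T cell defining genes, which lowered the median log2 ratio of all genes by 0.44, gave 0 higher and 2 lower (*Ctla4* and *Pdcd1*) with a median of -0.19, and 3 receptors with an interval above 1 and 4 below it in place of 5 and 2. *Cd28* and *Btla* turned to -0.17 and -0.20 with it. Scaling to *Gapdh*, which raised the median of all genes by 0.44, gave a median of 0.66. A fold threshold of 3 left 0 receptors higher, and one of 1.5 gave 2 lower. The *Cd226* to *Cd96* change of 0.560-fold had a 99% interval (0.288 to 1.09) that includes 1. Over all genes, higher genes made up 53.6% of the called genes with TMM, 27.4% with scaling to T cell defining genes, 79.1% with scaling to *Gapdh* and 60.2% with totals without *Rn45s*. Of 81 values of single receptors under other scalings or pseudocounts, 63 stayed within the counting interval of the receptor and the 2 named turned. The other 16 lay outside that interval with the sign kept, some smaller and some larger in size. *Cd226*, whose interval includes a ratio of 1, also changed sign, to -0.32 with scaling to T cell defining genes and -0.11 with quantile normalization. *Cd96* reached 2-fold with totals without *Rn45s*, *Gapdh* scaling and quantile normalization. The cause of these shifts, beyond the scaling itself, was not tested.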
